A study of Mus musculus with 4 samples.

Results

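Nr4a1, Nr4a2, Nr4a3, Egr1, Egr2, Egr3 and Nab2 were followed in RNA of regulatory T (Treg) cells, a CD4 lineage defined by Foxp3 that restrains immune responses, sorted from mouse spleen. These 7 genes were chosen by name, and the name of each matched 1 row of the deposited count table of 20837 genes. The libraries labelled cKO (n = 2) are from Foxp3YFP-CreKmt2dfl/fl mice, in which a Cre recombinase made with a yellow fluorescent protein from the Foxp3 gene deletes loxP-flanked Kmt2d, the gene of a histone H3 lysine 4 methyltransferase. The comparison libraries, labelled WT (n = 2), are from Foxp3YFP-CreKmt2d+/+ mice, which carry the same Cre and intact Kmt2d. Whether each library is from its own mouse is not stated, so p-values cover only the library-to-library spread, perhaps a technical one. The age of the mice behind the Treg libraries is not given in the sources used here, because the extraction protocol in the labels describes cultured bone marrow macrophages of another knockout, against the tissue, cell type and genotype fields that define the groups.

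Nr4a1 (Nur77), Nr4a2 (Nurr1) and Nr4a3 (Nor1) are orphan nuclear receptors, transcription factors that work without a known natural ligand in the classical sense and whose activity is set mainly by how much of them is made. Egr1, Egr2 and Egr3 are zinc finger transcription factors, and Nab2 is a corepressor that binds Egr proteins, is itself induced by them and limits their activity. Transcription of the Nr4a and Egr genes starts within minutes of T cell receptor stimulation, through calcium, cyclic AMP and MAP kinase signals, and Treg cells, which often meet self antigen, are known for carrying more of these transcripts than other resting T cells. In mouse T cells the Nr4a factors are known to support Foxp3 expression and Treg identity, and Egr2 and Egr3 are known to hold back activation.

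Total counts per library ran from 28442416 to 35560491, and 13861 genes passed the filter on low counts, all 7 members among them. No member passed only through 1 group, since the lowest count of a member in a library was 717 (Egr2 in cKO 1). Kmt2d transcripts measured 836 and 793 CPM (read counts relative to library size, with TMM scaling between libraries) in cKO libraries, against 721 and 704 CPM in WT libraries (log2 fold change 0.19, SE 0.05, edgeR quasi-likelihood adjusted p = 0.0375). This call was lost when any 1 of the 4 libraries was left out (edgeR adjusted p = 0.0951 to 0.237) and with RLE scaling (edgeR adjusted p = 0.0556). Reads from exons that Cre leaves in place are counted too, so the level is no check of the labels. All 12 T cell and all 8 Treg markers were detected, the T cell markers at a summed 5109 and 5563 CPM in cKO libraries, against 6772 and 6512 CPM in WT libraries. Of the 8 Treg markers 3 were lower, 1 was higher and 4 did not pass (list median log2 fold change -0.20). Among all tested genes 15.1% were lower and 16.5% higher. Macrophage and monocyte markers summed to 1136 and 945 CPM in cKO libraries, against 671 and 927 CPM in WT libraries. Of these 15 markers 2 were higher, Lyz2 with 584 and 544 CPM in cKO libraries, against 260.5 and 286 CPM in WT libraries, and Ly6c2 with 87.7 and 84.9 CPM in cKO libraries, against 23.3 and 35.4 CPM in WT libraries. The other 13 did not pass, the list median log2 fold change was -0.23, and C1qa, C1qb, C1qc and Spic were each at lower levels in both cKO libraries than in both WT libraries. All 12 neutrophil markers were higher in cKO libraries, at a summed 633 and 1352 CPM, against 73.5 and 196 CPM in WT libraries. Of 10 CD8 T and NK cell markers 9 were higher and of 8 basophil and mast cell markers 6. Of 9 dendritic cell markers 4 were higher and of 9 B cell markers 1, beside 16.5% of all tested genes. The part of these other cells in the results was not tested, and in such bulk samples fewer cells with a transcript and less of it per cell cannot be told apart.

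The libraries labelled cKO had less of 4 of the 7 transcripts. Nr4a3 was lower by the most, followed by Egr3, Nab2 and Egr2, while Nr4a1, Nr4a2 and Egr1 did not pass the test (edgeR quasi-likelihood test, adjusted p under 0.05 over all genes tested). Among all tested genes 15.1% were called lower and 16.5% higher in cKO libraries. The median log2 fold change was -0.56 over the 7 members and 0.0003 over all tested genes. These 4 genes were lower in each cKO library than in each WT library, an order that 30.9% of all tested genes showed, and 0 members had the opposite order, which 35.1% of all tested genes showed.

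**Figure D1:**
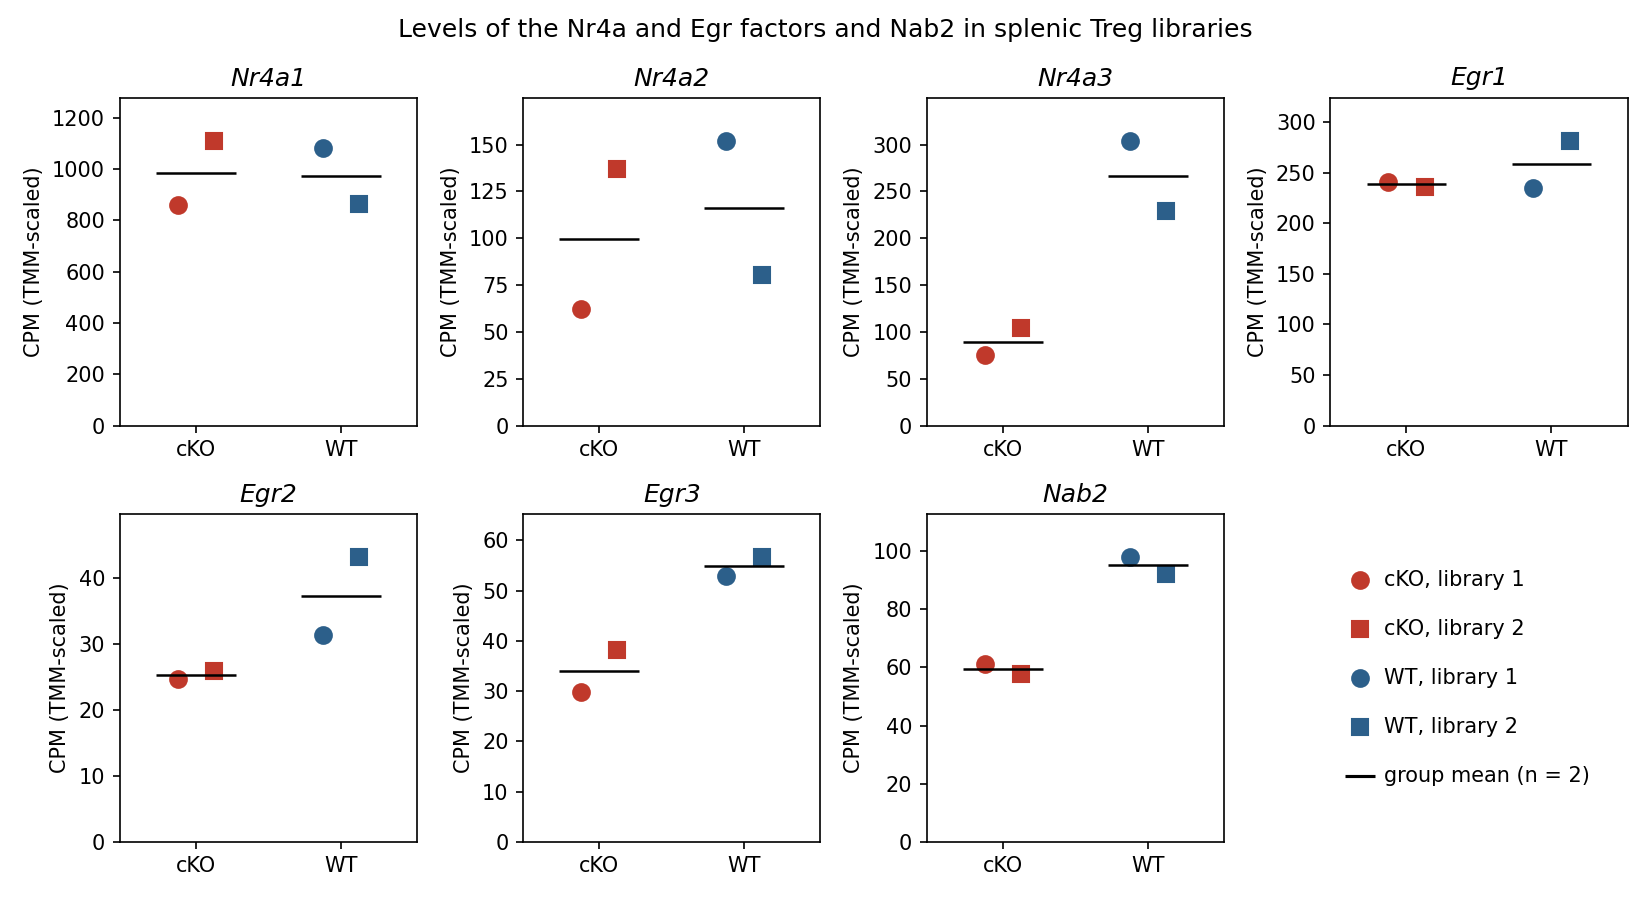
Level of each gene in each library (vertical axes, TMM-scaled CPM, starting at 0) with cKO libraries on the left and WT libraries on the right of each panel; circles are library 1, squares library 2, and lines are group means (n = 2). Nr4a3, Egr2, Egr3 and Nab2 do not overlap between the groups, whereas Nr4a1, Nr4a2 and Egr1 do.

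The Nr4a receptors differed from each other. In the annotation of GRCm38 (the assembly of the authors' build mm10) Nr4a1 lies on chromosome 15, 101254269 to 101274795, plus strand, Nr4a2 on chromosome 2, 57106830 to 57124003, minus strand, and Nr4a3 on chromosome 4, 48045153 to 48086447, plus strand. Because the 3 paralogs are known to be induced through cyclic AMP response elements (CREs), the DNA before their start sites was read from RefSeq's promoter table (GRCm38.p6), in which 5 of the 7 members have an entry (all but Egr1 and Egr3). Capitals mark the CRE core TGACG or, where it lies on the opposite strand, CGTCA. The Nr4a1 stretch is chr15:101266596-101266845 on the plus strand, within the annotated gene but outside its annotated exons. That of Nr4a2 is chr2:57124004-57124253 on the minus strand, and that of Nr4a3 is chr4:48045055-48045152 on the plus strand. The Nr4a3 stretch ends where the annotated exons begin.
Nr4a1: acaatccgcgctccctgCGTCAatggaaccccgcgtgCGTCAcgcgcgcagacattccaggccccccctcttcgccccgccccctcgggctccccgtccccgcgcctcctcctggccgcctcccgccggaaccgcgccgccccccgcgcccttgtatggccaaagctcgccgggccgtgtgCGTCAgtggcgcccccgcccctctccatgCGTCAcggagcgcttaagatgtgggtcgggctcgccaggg
Nr4a2: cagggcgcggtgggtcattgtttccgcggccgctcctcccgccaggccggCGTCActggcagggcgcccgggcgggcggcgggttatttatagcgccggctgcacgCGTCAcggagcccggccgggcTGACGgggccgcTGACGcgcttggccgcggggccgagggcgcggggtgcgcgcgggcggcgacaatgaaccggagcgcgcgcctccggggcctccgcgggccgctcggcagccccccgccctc
Nr4a3: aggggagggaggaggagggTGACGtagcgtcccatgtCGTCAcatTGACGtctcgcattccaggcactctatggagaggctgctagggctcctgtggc

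Each of the 3 windows of 250 bases before the start site held 4 CRE cores, on either strand. In Nr4a1 they began at positions -233, -213, -69 and -40 from the start site, in Nr4a2 at -200, -144, -123 and -111, and in Nr4a3 at -231, -213, -205 and -147, the last of which lies beyond the printed stretch. Of all 32851 windows of this length in the table, 17.8% held at least 1 CRE core and 0.137% (45 windows) held 4 or more. A full CRE, TGACGTCA, which would count as a pair of overlapping cores, occurred in none of the 3 and in 1.55% of all windows. The letters are a description of these windows and mark no measured binding.

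Nr4a3 had 75.5 and 104 CPM in cKO libraries, against 304 and 229.6 CPM in WT libraries. The higher cKO library was under the lower WT library by more than the gap between libraries of either group. The mean was 89.7 ± 20.0 CPM in cKO and 267 ± 52.7 CPM in WT libraries (SD, n = 2 each), and the level fell by 66.4% (log2 fold change -1.57, SE 0.19, edgeR quasi-likelihood adjusted p = 0.00512). The call held under each of the 12 alternatives run, with log2 fold changes of -1.82 to -1.36 when 1 library was left out.

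Nr4a1, the most abundant of the 7, had 858 and 1110.2 CPM in cKO libraries, against 1083 and 865 CPM in WT libraries. Each group held 1 high and 1 low library, so the groups overlapped. The log2 fold change was 0.01 with an SE of 0.15 (edgeR quasi-likelihood adjusted p = 0.962), and its sign turned with RLE scaling and with DESeq2. Nr4a2 had 62.2 and 137 CPM in cKO libraries, against 152 and 80.4 CPM in WT libraries. The gap within a group, 2.20-fold in cKO and 1.89-fold in WT libraries, exceeded that between the means of 99.6 ± 52.8 CPM in cKO and 116 ± 50.7 CPM in WT libraries (SD, n = 2 each; log2 fold change -0.22, SE 0.43, edgeR adjusted p = 0.771).

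Nr4a1 and Nr4a2 were high in the same libraries, cKO 2 and WT 1, and low in cKO 1 and WT 2. Summed erythroid and platelet markers, mostly globins, followed this order, with 185 and 522 CPM in cKO libraries, against 672 and 242 CPM in WT libraries. Of these 9 markers the platelet gene Pf4 was at or near 0, with 2 and 0 counts in cKO libraries, against 2 and 1 counts in WT libraries. The 8 Treg markers summed to 2387 and 2979 CPM in cKO libraries, against 3487 and 2684 CPM in WT libraries, in the same order of libraries. Total counts were also larger in cKO 2 and WT 1, with 28442416 and 34225385 in cKO libraries, against 35560491 and 30737750 in WT libraries. The part of these markers or of the total counts in the levels of Nr4a1 and Nr4a2 was not tested. Nr4a3 was also the higher of its group in cKO 2 and in WT 1, within its lower and higher level.

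**Figure D2:**
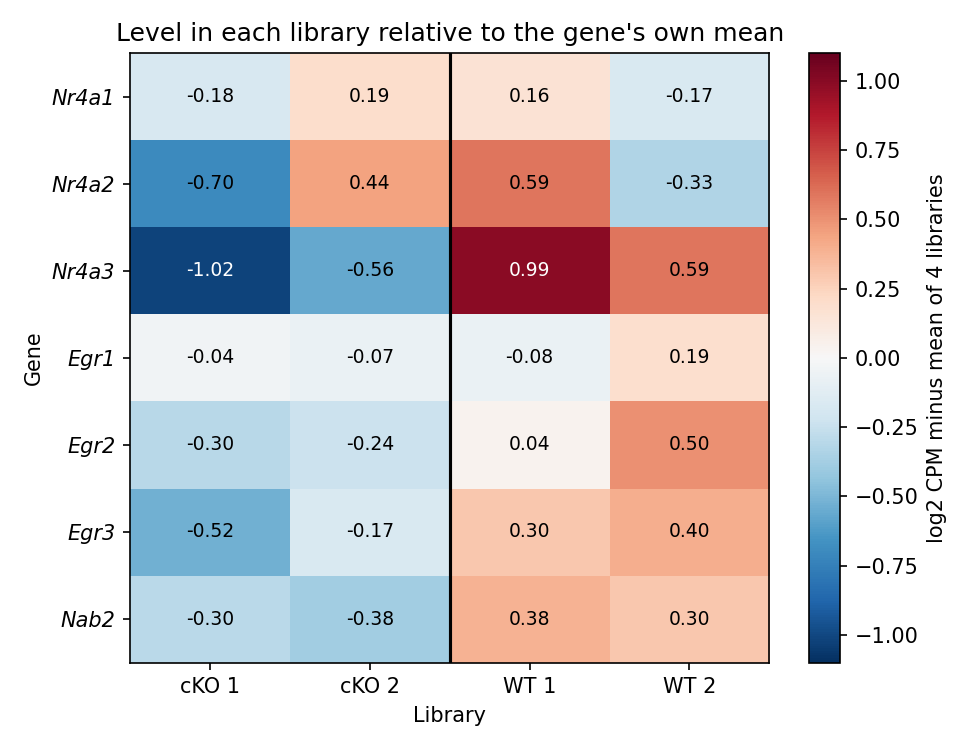
Level of each gene (rows) in each library (columns, cKO left of WT, divided by the black line) as log2 CPM minus the gene's mean over the 4 libraries, with red above and blue below that mean. Nr4a1 and Nr4a2 are above their mean in cKO 2 and WT 1, while Nr4a3, Egr2, Egr3 and Nab2 are below it in both cKO libraries.

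The Nr4a3 share of the Nr4a counts was apart between the groups and close within them. Nr4a3 took 7.58% (95% Wilson interval 7.28 to 7.89) and 7.68% (7.45 to 7.93) of the counts of the 3 genes in cKO libraries, against 19.8% (19.4 to 20.1) and 19.5% (19.1 to 19.95) in WT libraries. These intervals cover counting error only. Nr4a1 took 86.2% and 82.2% in cKO libraries, against 70.4% and 73.6% in WT libraries, and Nr4a2 6.25% and 10.1% in cKO libraries, against 9.88% and 6.84% in WT libraries. Divided by exon length, the Nr4a3 share was 4.63% and 4.72% in cKO libraries, against 12.8% and 12.6% in WT libraries. All 3 genes together summed to 996 and 1351 CPM in cKO libraries, against 1539 and 1175 CPM in WT libraries, and these sums overlap.

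A ratio of counts within a library does not depend on how libraries are scaled. The log2 ratio of Nr4a3 to Nr4a1 was -3.51 and -3.42 in cKO libraries, against -1.83 and -1.91 in WT libraries, so relative to Nr4a1 the level of Nr4a3 in cKO libraries was 0.332 of that in WT libraries. The log2 ratio of Nr4a3 to Nr4a2 was 0.28 and -0.40 in cKO libraries, against 1.00 and 1.51 in WT libraries, without overlap. The log2 ratio of Nr4a2 to Nr4a1 was -3.79 and -3.02 in cKO libraries, against -2.83 and -3.43 in WT libraries, and these overlapped. Over the 9 ratios computed among the members, the smallest p that an exact 2-sided permutation test of 2 against 2 libraries can give is 0.333, which the 5 ratios without overlap reached (Benjamini-Hochberg adjusted p = 0.6), those of Nr4a3 to Nr4a1, Nr4a3 to Nr4a2, Egr2 to Egr1, Egr3 to Egr1 and Nab2 to Egr1, so this design cannot bring a ratio past the threshold.

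**Figure D3:**
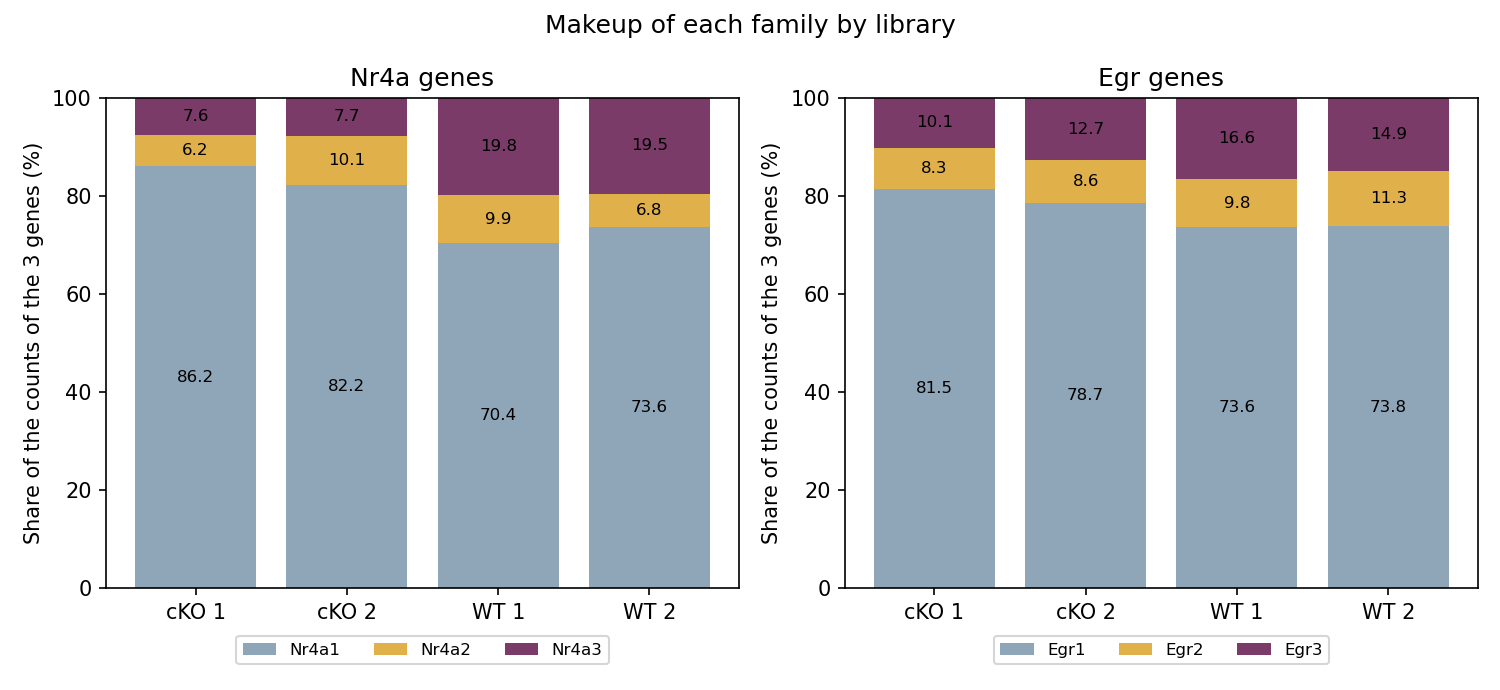
Share of each gene in the counts of the 3 Nr4a genes (left) and the 3 Egr genes (right) in each library, cKO libraries left of WT libraries, as stacked bars that sum to 100%. The Nr4a3 part is 7.58% and 7.68% in cKO libraries and 19.8% and 19.5% in WT libraries, and the Egr1 part is larger in both cKO libraries.

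Of the Egr factors, Egr2 and Egr3 were lower and Egr1 did not pass. Egr2 lies on chromosome 10, 67535475 to 67542188, plus strand, and Egr3 lies on chromosome 14, 70077203 to 70082614, plus strand. The promoter stretch of Egr2 is shown for the elements through which MAP kinase and cyclic AMP signals are known to act. It is chr10:67537619-67537868 on the plus strand, the last of the 5 start-site windows of this gene that overlaps no annotated exon. The 10 capitals in a row mark a CArG box, the binding element of serum response factor, and the shorter runs mark CRE cores.
Egr2: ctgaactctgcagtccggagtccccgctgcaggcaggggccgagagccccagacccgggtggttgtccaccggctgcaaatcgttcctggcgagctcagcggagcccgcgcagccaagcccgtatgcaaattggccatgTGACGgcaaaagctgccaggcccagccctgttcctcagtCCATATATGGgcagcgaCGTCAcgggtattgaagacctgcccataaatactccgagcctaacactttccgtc

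The CArG box began at -72 and the CRE cores at -111 and -55 from this start site. A CArG box stood in 1.47% of all 32851 windows. It can read the same on both strands, and it was counted once per place.

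Egr3 had 29.9 and 38.2 CPM in cKO libraries, against 52.9 and 56.7 CPM in WT libraries. Both cKO libraries were under both WT libraries, with more spread in cKO. The level fell by 37.7% (log2 fold change -0.68, SE 0.12, edgeR quasi-likelihood adjusted p = 0.0101), and the call held in each of the 12 alternatives. Egr2 had 24.7 and 25.8 CPM in cKO libraries, against 31.3 and 43.1 CPM in WT libraries. Here the WT libraries were the ones that differed, and the fall of 0.56 on the log2 scale (SE 0.15, edgeR quasi-likelihood adjusted p = 0.0378) came to -0.31 without WT 2. The Egr2 call was lost without WT 2 (edgeR adjusted p = 0.0655), without cKO 1 (edgeR adjusted p = 0.101), without cKO 2 (edgeR adjusted p = 0.0704) and with limma-voom (adjusted p = 0.0502).

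Egr1, an early response factor that lies on chromosome 18, 34859823 to 34864984, plus strand, had 241 and 236 CPM in cKO libraries, against 235 and 282 CPM in WT libraries. Both cKO libraries lay between WT 1 and WT 2, and the log2 fold change was -0.11 (SE 0.09, edgeR quasi-likelihood adjusted p = 0.403). Its sign turned to 0.02 without WT 2. Egr4, the remaining gene of the family, was barely detected, with 13 and 22 counts in cKO libraries, against 9 and 11 counts in WT libraries (log2 fold change 0.82, SE 0.39, edgeR adjusted p = 0.171).

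Egr1 took a larger share of the Egr counts in cKO libraries. It made up 81.5% (95% Wilson interval 80.7 to 82.4) and 78.7% (77.9 to 79.4) of the counts of Egr1, Egr2 and Egr3 in cKO libraries, against 73.6% (72.8 to 74.4) and 73.8% (73.0 to 74.6) in WT libraries. The Egr3 share was 10.1% and 12.7% in cKO libraries, against 16.6% and 14.9% in WT libraries, and the Egr2 share 8.34% and 8.60% in cKO libraries, against 9.82% and 11.3% in WT libraries. None of these shares overlapped between the groups. The shares of a library add up to the whole, so these orders are not separate results, and the intervals again cover counting error only. The log2 ratio of Egr3 to Egr2 was 0.28 and 0.57 in cKO libraries, against 0.75 and 0.39 in WT libraries, and it overlapped.

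Nab2, the corepressor, had 61.1 and 57.6 CPM in cKO libraries, against 97.9 and 92.2 CPM in WT libraries. The libraries of each group were close and the groups far apart, and this was the most tightly measured fall among the members (log2 fold change -0.68, SE 0.06, edgeR quasi-likelihood adjusted p = 0.00356). The log2 ratio of Nab2 to Egr3 was 1.03 and 0.59 in cKO libraries, against 0.89 and 0.70 in WT libraries, and that of Nab2 to Egr2 averaged 1.23 ± 0.11 in cKO libraries and 1.37 ± 0.39 in WT libraries (SD, n = 2 each). Both overlapped between the groups. The log2 ratio of Nab2 to Egr1 was -1.98 and -2.03 in cKO libraries, against -1.26 and -1.61 in WT libraries, without overlap. Nab1, the related corepressor, had 113 and 110.1 CPM in cKO libraries, against 118 and 118 CPM in WT libraries, and did not pass (log2 fold change -0.08, SE 0.05, edgeR adjusted p = 0.245).

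Nab2 lies on chromosome 10, 127660918 to 127668568, minus strand. Since Nab2 is known as a gene that Egr factors induce, its promoter window was searched for the Egr core GCGTGGGC on either strand. The window lies within the annotated gene and overlaps annotated exons of Nab2 and of the opposite-strand gene Nemp1. It held 1 such core, shown with its surroundings at chr10:127666717-127666746 on the minus strand, where capitals mark the core as it reads on the strand opposite to the gene.
Nab2: cccccggttctGCCCACGCcctcctcccgc

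This core began at -32 from the start site, and 1.37% of all windows held one. The windows printed for Nr4a1, Nr4a2, Nr4a3 and Egr2 had no Egr core. The window of Nab1, which did not pass, held 2, at -140 and -109. None of the windows of Nr4a1, Nr4a2, Nr4a3, Egr2 and Nab2 had the Nr4a element NBRE, AAAGGTCA, which stood in 1.34% of all windows. On the opposite strand Nab2 overlaps Stat6 over 40 exonic bases, Nemp1 over 151 and the antisense gene Gm16229 over 1050, and no source used here says whether counting used strand, so their reads could be counted as Nab2. Stat6, a signal transducer of interleukin 4, did not pass (log2 fold change -0.08, SE 0.05, edgeR adjusted p = 0.305), and Nemp1, a nuclear envelope gene, rose (log2 fold change 0.26, SE 0.07, edgeR adjusted p = 0.0350). The deposited counts hold no row under the name Gm16229, so its level could not be examined.

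**Figure D4:**
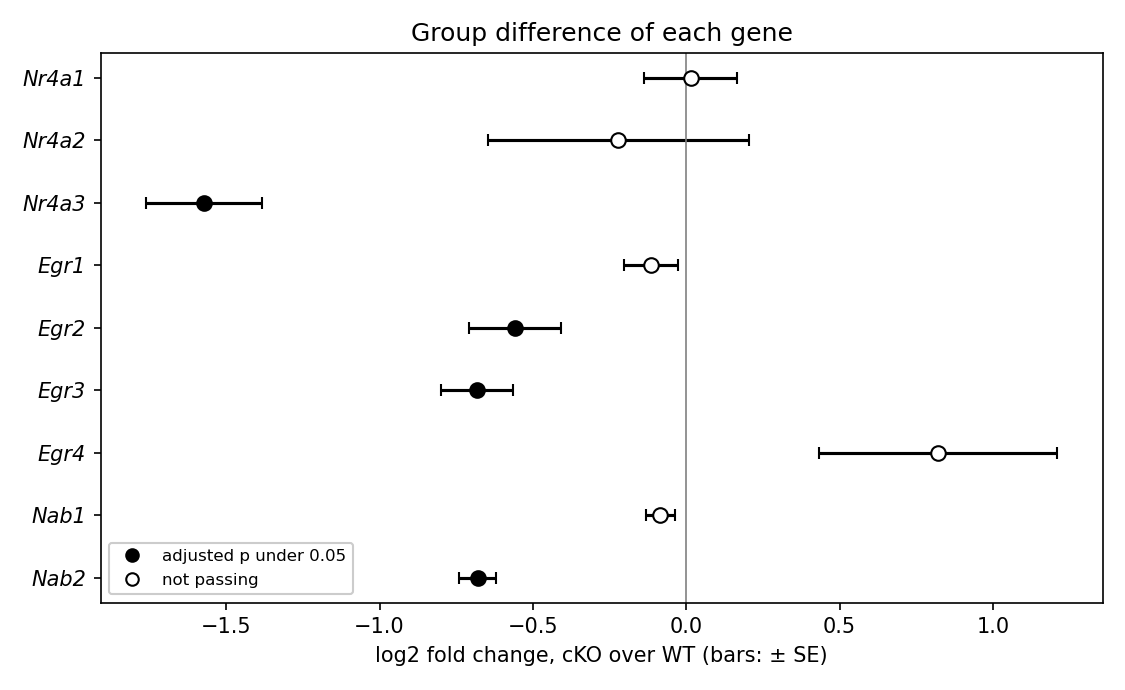
Log2 fold change of cKO over WT libraries (horizontal axis, bars ± SE) for the 7 genes and their relatives Egr4 and Nab1; filled points passed the test across all genes and open points did not. Nr4a3 at -1.57 is the farthest from 0, and Egr2, Egr3 and Nab2 lie between -0.56 and -0.68.

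Levels of different genes were compared as CPM per kilobase of annotated exons. In cKO libraries Nr4a1 came first with 245 and 316, followed by Egr1 with 53.7 and 52.6, Nr4a2 with 15.3 and 33.7, Nab2 with 20.8 and 19.6, Nr4a3 with 12.6 and 17.3, Egr3 with 6.78 and 8.67, and Egr2 with 7.26 and 7.59 CPM per kilobase. Nr4a2 overlapped both Nab2 and Nr4a3 in that order, and Egr3 overlapped Egr2. In WT libraries Nr4a1 had 309 and 247, Egr1 52.4 and 62.8, Nr4a3 50.8 and 38.3, Nab2 33.3 and 31.4, Nr4a2 37.5 and 19.8, Egr3 12.0 and 12.9, and Egr2 9.23 and 12.7 CPM per kilobase. Nab2 overlapped Nr4a2 there, and Egr3 overlapped Egr2. By mean level Nr4a3 stood at the third place in WT libraries, after Nr4a1 and Egr1, and at the fifth in cKO libraries.

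The genes with the most similar course over the 4 libraries were sought by the Euclidean distance between log2 CPM profiles centred on their own mean. Each member was compared with 11134 other genes that averaged 1 CPM or more. Symbols of predicted genes, clones and pseudogenes were left out. Over so few libraries many genes lie close to any profile. Those nearest to Nr4a3 were Vps37b, a subunit of the ESCRT-I sorting complex (distance 0.08, 211 and 283 CPM in cKO libraries, against 787 and 613 CPM in WT libraries), Utf1 (0.09) and the small GTPase gene Rrad (0.10). Nearest to Nr4a1 were Zfp661 (0.02), the cochaperone gene Dnajb4 (0.04) and Snhg15 (0.05). Nr4a2 had no neighbour as close, with Trim30c at 0.13, Drc1 at 0.15 and Gpld1 at 0.16.

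Egr1 was nearest to Poll, a DNA polymerase gene, Rnasek and Slc25a24 (each 0.02), Egr2 to the NAD glycohydrolase gene Cd38 (0.06), Tmem276 (0.06) and Vsig10l (0.09), and Egr3 to Dnajb2 (0.03), Sez6l2 (0.04) and the kinesin gene Kif5c (0.06). Nab2 was nearest to the carrier gene Slc25a42 (0.02), Plcb4 (0.06) and the bicarbonate transporter gene Slc4a7 (0.06). Among the members themselves, Egr3 and Nab2 (0.34) and Egr2 and Egr3 (0.36) were the closest, and Nr4a3 and Nr4a1 the most distant at 1.59. Many other genes lay closer than these members: of 11134 compared, Nab2 ranked 560 and Egr2 650 in distance from Egr3. Egr3 ranked 798 in distance from Nab2 and 322 from Egr2.

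Other immediate early genes were mostly lower as well, again with exceptions among the best known. Of 42 such genes, 25 fell and 4 rose while 13 missed the threshold, with a list median log2 fold change of -0.36, beside 0.0003 over all tested genes, of which 31.6% were called in either direction. The NF-kB subunit gene Rel had 184 and 216 CPM in cKO libraries, against 433 and 357 CPM in WT libraries (log2 fold change -0.98, SE 0.12, edgeR quasi-likelihood adjusted p = 0.00512). The salt-inducible kinase gene Sik1 fell by 1.11 (log2), and Nfkbid, an NF-kB inhibitor gene, fell by 0.47, whereas the growth regulator gene Myc rose by 0.68. Jun (0.27), Ier3 (0.69) and Rgs1 (0.26) also rose. The classical early genes Fos (0.05), Fosb (-0.10), Atf3 (0.10) and the activation marker gene Cd69 (0.18) did not pass. Junb (-1.03), Jund (-0.75), Dusp1 (-0.74), Tnfaip3 (-0.69) and Ier2 (-0.53) were among those that fell. Apart from Myc, Rel, Sik1 and Nfkbid, the genes of this paragraph were named after their values were seen.

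Among 41 genes of the signals and factors that act on Nr4a and Egr transcription, 19 fell, 3 rose and 19 did not pass (list median -0.17). Thus 53.7% were called, beside 31.6% of all tested genes. The NFAT genes, whose products carry the calcium signal to the nucleus, were lower: Nfatc3 had 341 and 342 CPM in cKO libraries, against 463 and 459 CPM in WT libraries (log2 fold change -0.43, SE 0.045, edgeR quasi-likelihood adjusted p = 0.00435). Nfatc1 fell by 0.59 and the calcineurin subunit gene Ppp3cc by 0.92, while the calcineurin subunit gene Ppp3ca rose by 0.50. The other 2 that rose were Nras (0.39) and Mef2c (1.24), a factor gene that B cells and myeloid cells also express. Nfatc2 (-0.66) and Mef2d (-0.58) fell. The serum response factor gene Srf (-0.03) and Creb1 (-0.06), which encode factors that bind the CArG box and the CRE, did not pass. Of other factor genes in the list, Elk1 (-0.46), Elk3 (-0.28), Elk4 (-0.33), Mrtfa (-0.23), Crtc3 (-0.66), Crebbp (-0.24) and Ep300 (-0.19) fell. Mrtfb (-0.19), Crtc2 (0.03), Atf1 (-0.09) and Crem (-0.75, edgeR adjusted p = 0.0507) did not pass. The falls also include the histone deacetylase genes Hdac4 (-0.59), Hdac5 (-0.17) and Hdac7 (-0.57). The list was not sorted into activators and repressors, so its median has no expected sign. The names from Nras on were chosen after their values were seen. The count of called genes was 12 without WT 1 and 14 without cKO 1, against 22 with all libraries.

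Of 21 genes reported downstream of Nr4a factors in mouse T cells, 11 fell, 2 rose and 8 did not pass (list median -0.35). In this list 61.9% were called, beside 31.6% of all tested genes. The list was not sorted by the direction in which each gene was reported to respond, so its median has no expected sign. Tox2, a nuclear factor gene of chronically stimulated T cells, had 11.2 and 13.8 CPM in cKO libraries, against 37.1 and 38.3 CPM in WT libraries (log2 fold change -1.59, SE 0.11, edgeR quasi-likelihood adjusted p = 0.00236). Foxp3 itself had 170 and 180.2 CPM in cKO libraries, against 278 and 250.2 CPM in WT libraries, and fell by 0.59 on the log2 scale, and Ikzf4, the Ikaros family gene Eos, fell by 0.54. The 2 that rose were Havcr2 (TIM-3, 1.11) and Il2ra (0.38, named after its value was seen). T cell markers as a whole were lower by a median of -0.32, 9 of 12 called lower and 0 higher. Over all tested genes 15.1% were called lower and 16.5% higher. Foxp3, Ikzf2, Ctla4, Il2ra and Tnfrsf18 of this list are also among the Treg markers. The part of the T cell and Treg markers in the falls of this list was not tested.

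Of 25 genes reported downstream of Egr2 and Egr3 in mouse T cells, Nab2 among them, 9 fell, 6 rose and 10 did not pass (list median -0.14). Here 60.0% were called, beside 31.6% of all tested genes. Nrn1, the neuritin gene, had 107 and 117 CPM in cKO libraries, against 33.6 and 36.2 CPM in WT libraries (log2 fold change 1.68, SE 0.07, edgeR quasi-likelihood adjusted p = 0.00159). Zeb2 rose by 0.72 and Prdm1, the Blimp-1 gene, by 0.85, while the costimulatory receptor gene Tnfrsf9 fell by 0.91. Thus the list, also not sorted by reported direction, did not move in 1 direction. Heat shock genes, a group known to respond to stress, showed 4 lower, 1 higher and 9 not passing of 14, with a list median of 0.02. The share called was 35.7%, beside 31.6% of all tested genes, and 2 or 3 of the 14 were called when any 1 library was left out. They include Bag3, which fell by 0.77, Dnaja1 by 0.37 and Dnajb1 by 0.22, and Hspd1, which rose by 0.26. Their summed level was 7392 and 7290 CPM in cKO libraries, against 7144 and 7633 CPM in WT libraries, and these overlap.

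**Figure D5:**
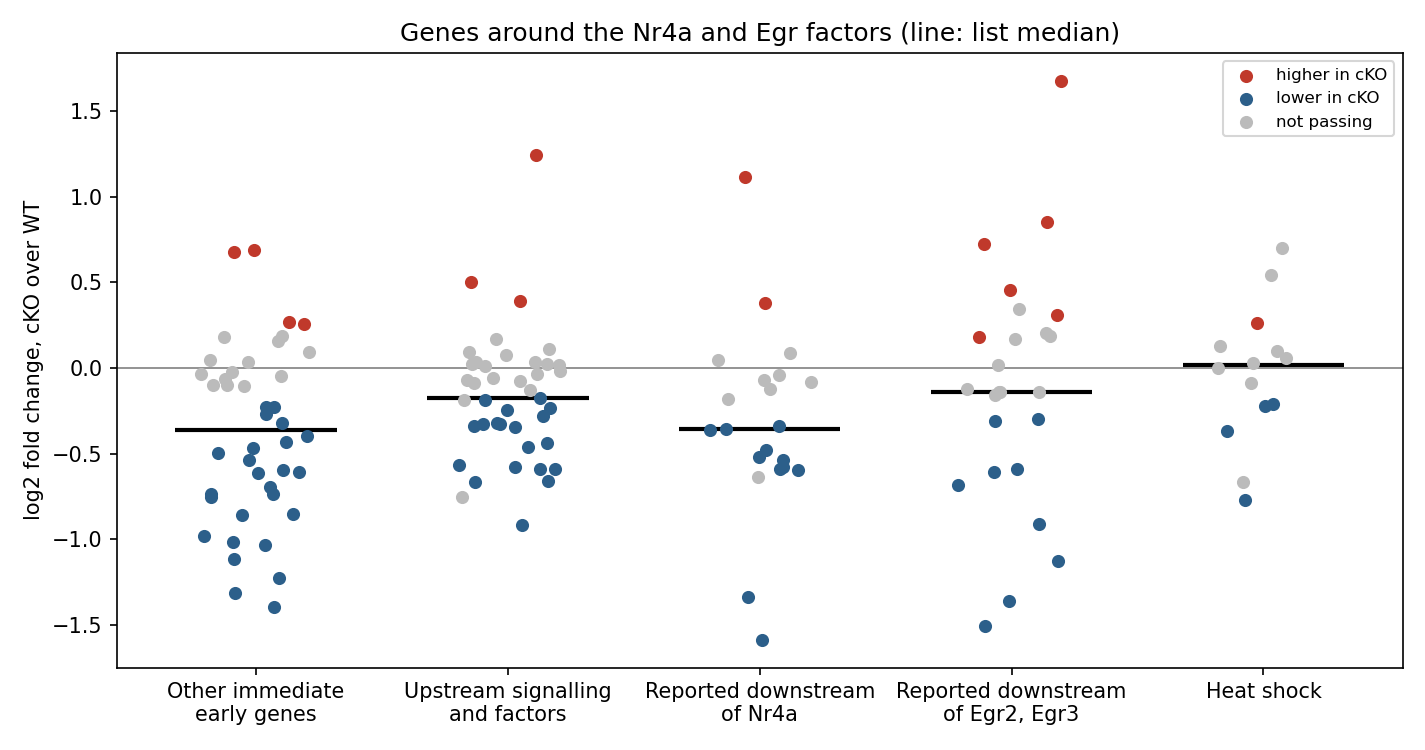
Log2 fold change of cKO over WT libraries (vertical axis) for every tested gene of 5 lists, red where called higher, blue where called lower and grey where not passing; horizontal lines are list medians and horizontal scatter is for display. The medians are -0.36 for other immediate early genes, -0.17 for upstream signalling and factors, -0.35 and -0.14 for genes reported downstream of Nr4a and of Egr2 and Egr3, and 0.02 for heat shock genes.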

How the data were processed

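Raw read counts per gene for 4 libraries of splenic Treg cells were deposited by the authors in 1 table. The genome build was mm10, per the submitters' processing notes, and for the aligner, counter, annotation and strand setting the entry is "not given in the sources used here". The members and gene lists were chosen with earlier results of these data known.

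Genes were kept by filterByExpr of edgeR (count of 10, total of 15), scaled by TMM and tested across all 13861 genes with edgeR 4.0.16 in R 4.3.3 (quasi-likelihood F-test, 2-sided, group alone), with Benjamini-Hochberg adjustment and a threshold of 0.05. SE was derived from the fold change (log2) and F. Log2 profiles used a prior count of 2. The test was also run on simulated counts in which far fewer genes changed than were called here. That run does not check its error rate in these data. A read was worth 0.0288 to 0.0344 CPM. Exon lengths and overlaps came from GENCODE M21 (GRCm38).

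Named were the 7 members, Egr4, Nab1, Kmt2d, overlapping genes, the 4 genes of each list with the smallest p, and the 3 genes nearest to each member. Alternatives were DESeq2 1.42.0, limma-voom 3.58.1, scaling by RLE or by upper quartile, no filter, at least 5 CPM in 2 libraries, the replicate number as a block, and leaving out each library. The count of 12 alternatives also includes a crossed block (cKO 1 with WT 2), which was not planned and was chosen after seeing the data.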

Additional observations from a re-analysis of the deposited data

How the results depend on the processing

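Under the 12 alternatives the fall of Nr4a3, Egr3 and Nab2 passed each time, and 3 to 5 members were called, all lower. Nr4a1 turned to -0.0039 with RLE scaling and -0.0035 with DESeq2. When 1 library was left out, log2 fold changes ran from -0.19 to 0.19 for Nr4a1, from -0.91 to 0.31 for Nr4a2 and from -0.24 to 0.0202 for Egr1, none of them passing. The cause was not tested. Genes called overall numbered 4380 in the comparison as reported, 2876 with DESeq2, 1869 to 2747 with 1 library left out, and 2292 with the replicate number as a block. With that block the 4 member calls held, Kmt2d was not called (edgeR adjusted p = 0.13), and 2 heat shock genes were called rather than 5 (2 to 3 with a library left out). Genes of upstream signalling called numbered 12 to 20 with a library left out. The labels do not say that a number pairs libraries, and deviations of same-numbered libraries correlated at -0.32 over 13861 genes. A crossed block (cKO 1 with WT 2), chosen after seeing the data, called 6713 of all 13861 tested genes. It also called 5 of the 7 members (Nr4a2 as well, lower) and 9 of the 14 heat shock genes. Adding 1 to each count moved no ratio by as much as its spread. Egr4 was not tested with the filter of 5 CPM. With 2 libraries per group, small differences are not detectable.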
